A study of Mus musculus with 51 samples.

Results

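The glucocorticoid-responsive genes described here are 10 genes chosen by symbol: Zbtb16, Fkbp5, Tsc22d3, Klf9, Sgk1, Errfi1, Mt1, Mt2, Cdkn1a and Pdk4. Each had 1 probe set among the 22206 on the array, which name 19505 genes in all. Glucocorticoids such as corticosterone bind the glucocorticoid receptor, which is held ready in the cytoplasm by heat shock proteins, enters the nucleus and binds palindromic response elements near its target genes. Inhaled and systemic glucocorticoids are a mainstay of asthma treatment, and lung epithelium, endothelium and leukocytes all carry the receptor. The genes were chosen by name, with earlier results of these data known. No glucocorticoid was given to any group according to the labels.

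Lung RNA of male mice, 6 to 8 weeks old, was hybridised to 1-colour arrays. All mice, controls included, had methylene diphenyl diisocyanate (MDI, a chemical of polyurethane production) put on the skin of the back on 2 occasions, at 1% in acetone. Intranasal exposure with isoflurane anaesthesia followed on day 15, day 16, day 19 and day 20. MDI groups received MDI-glutathione reaction products and control groups a solution in which MDI and glutathione had been reacted separately. Lungs were perfused and their airways lavaged before collection, 48 h after the final dose. There were 3 MDI and 3 control arrays from BALB/c mice, 13 MDI and 6 control arrays from C57BL/6 mice, 3 MDI and 5 control arrays from C57BL/6 mice given crofelemer, and 7 MDI and 9 control arrays from B-cell deficient mice. Crofelemer, a chloride channel inhibitor, was given through the nose at 4 mg/kg, 4 h before each exposure. The B-cell deficient strain, B6.129S2-Ighmtm1Cgn/J, lacks mature B cells throughout life because its gene for the heavy chain of IgM is disrupted. The labels number the arrays within a group but do not say that each is a separate mouse, so p-values measure the spread between arrays. The source label of C57BL/6 MDI array 14 names control products, against its title, description and exposure label, and results without it lie within the ranges given for single arrays left out.

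The mean log2 signal of the arrays lay at 4 levels, with BALB/c arrays between 7.37 and 7.40, the crofelemer arrays between 7.43 and 7.48, the other C57BL/6 arrays between 7.48 and 7.51 and the B-cell deficient arrays between 8.02 and 8.07. These sets may have been normalized apart, so levels across them are given side by side, and the comparisons of crofelemer with none carry any such difference. Lung genes were bright in every group, with mean log2 signals of the surfactant gene Sftpc between 19.19 and 19.57. The B-cell gene Cd79a averaged 4.94 ± 0.28 in MDI and 5.26 ± 0.26 in control B-cell deficient mice (SD, n = 7 and 9), against 10.56 ± 0.69 and 11.08 ± 0.57 in the MDI and control C57BL/6 groups (n = 13 and 6). The disrupted gene itself had no named probe set and was not checked. Whole lung holds many cell types, and fewer cells of a type cannot be told apart from less RNA per cell.

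Promoter sequences of 9 of the 10 genes were found in RefSeq's table for build GRCm38.p6, as 18 windows of the 250 bases before a transcript start. They were searched on both strands for 5 motifs. The full glucocorticoid response element was searched as AGAACA, any 3 bases and TGTTCT, and a relaxed form, which every full match also meets, as GNACA, any 3 bases and TGTNC. The metal response element core was searched as TGCACNC or TGCGCNC, the clock E-box as CACGTG and the cyclic AMP response element as TGACGTCA. The 3 windows shown are those of Sgk1, with the full palindrome, of Fkbp5, which was higher with crofelemer in control mice, and of Mt2, with several metal elements. Capitals mark the motifs found.
Sgk1, chr10:21993640-21993889, plus strand: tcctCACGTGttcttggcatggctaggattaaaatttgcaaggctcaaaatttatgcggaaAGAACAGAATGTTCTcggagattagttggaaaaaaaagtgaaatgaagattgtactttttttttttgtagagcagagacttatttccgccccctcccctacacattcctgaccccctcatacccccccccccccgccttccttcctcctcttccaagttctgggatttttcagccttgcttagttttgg
Fkbp5, chr17:28486150-28486399, minus strand: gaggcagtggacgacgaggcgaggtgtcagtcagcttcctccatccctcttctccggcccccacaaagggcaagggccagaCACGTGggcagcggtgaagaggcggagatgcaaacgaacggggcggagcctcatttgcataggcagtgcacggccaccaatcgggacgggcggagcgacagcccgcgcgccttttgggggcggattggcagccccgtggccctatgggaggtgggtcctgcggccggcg
Mt2, chr8:94172368-94172617, plus strand: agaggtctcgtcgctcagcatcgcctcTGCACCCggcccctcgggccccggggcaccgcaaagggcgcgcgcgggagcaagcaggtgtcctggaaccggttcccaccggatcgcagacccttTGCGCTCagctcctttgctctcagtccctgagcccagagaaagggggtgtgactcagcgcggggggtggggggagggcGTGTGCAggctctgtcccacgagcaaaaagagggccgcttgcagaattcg

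The Sgk1 window precedes 1 of 6 starts listed for the gene and lies within its span. It held the full palindrome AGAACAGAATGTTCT, which began 189 bases before the start, and a clock E-box. Of 32851 mouse promoter windows of this length, 3 held the full palindrome (0.00913%). The relaxed form, in 0.387% of windows, was also found in Mt1 as GGACATGATGTTC, 94 bases before the start, in a window that also had 1 metal element (TGCACAC). The Mt2 window had 3 metal elements, and 21.4% of all windows held at least 1. The Fkbp5 window had 1 E-box (6.02% of windows) and no palindrome of either form. A cyclic AMP element (1.55% of windows) stood in 1 Errfi1 window. The windows of Tsc22d3, Klf9, Cdkn1a and Pdk4 held none of these letters. A match is a description of the sequence and not evidence of binding.

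Zbtb16 (chr9:48651797-48836225), a zinc finger transcription factor that directs innate-like lymphocytes and is induced by glucocorticoids in many tissues, was higher with MDI in BALB/c mice. Its log2 signal was 12.47, 11.81 and 11.66 in the BALB/c MDI arrays, against 10.62, 8.01 and 8.44 in the controls. All MDI arrays stood above all controls, and control 1 was the highest control by a wide margin. The difference was 2.96 ± 0.71 on the log2 scale (SE; limma adjusted p = 0.0444). Fkbp5 (chr17:28398753-28486149) encodes a co-chaperone that lowers the receptor's affinity for hormone and so closes a feedback loop. It measured 11.59, 11.82 and 11.35 in MDI and 10.60, 8.32 and 8.20 in control arrays of BALB/c mice, with a difference of 2.55 ± 0.62 (limma adjusted p = 0.0467). Again the groups did not overlap and control 1 was the highest control.

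These 2 of the 10 genes passed the test in BALB/c mice, both higher, where 0.302% of all probe sets passed (0.261% higher and 0.0405% lower). As the 10 genes were chosen with earlier results of these data known, these shares are no test of the list. Both calls rest on few arrays. They ended without any 1 of control 2, control 3 or the 3 MDI arrays (adjusted p up to 0.438 for Zbtb16 and 0.491 for Fkbp5), and without control 1 the differences were 3.76 and 3.33. Both also ended with quantile normalization (adjusted p = 0.0971 and 0.115), without an intensity trend (0.0531 and 0.0546), with the submission block as a term (0.0530 and 0.0586) and with block 1 alone (0.101 and 0.0773). Mt2, a metal-binding metallothionein, measured 13.81, 13.03 and 13.03 in MDI and 12.93, 11.71 and 11.81 in control arrays, a difference of 1.14 ± 0.58 that did not pass (limma adjusted p = 0.910). It was the third gene of the 10 whose groups did not overlap, which held for 14.3% of all probe sets. Of the goblet cell markers, 4 of 5 were also higher with MDI in BALB/c mice. Their mean log2 signal ranged from 10.01 to 10.95 in MDI and from 4.40 to 5.14 in control arrays. In C57BL/6 and in B-cell deficient mice 5 of 5 were higher, where Zbtb16 and Fkbp5 were not called. The part of goblet cells in the BALB/c result was not tested.

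**Figure D1:**
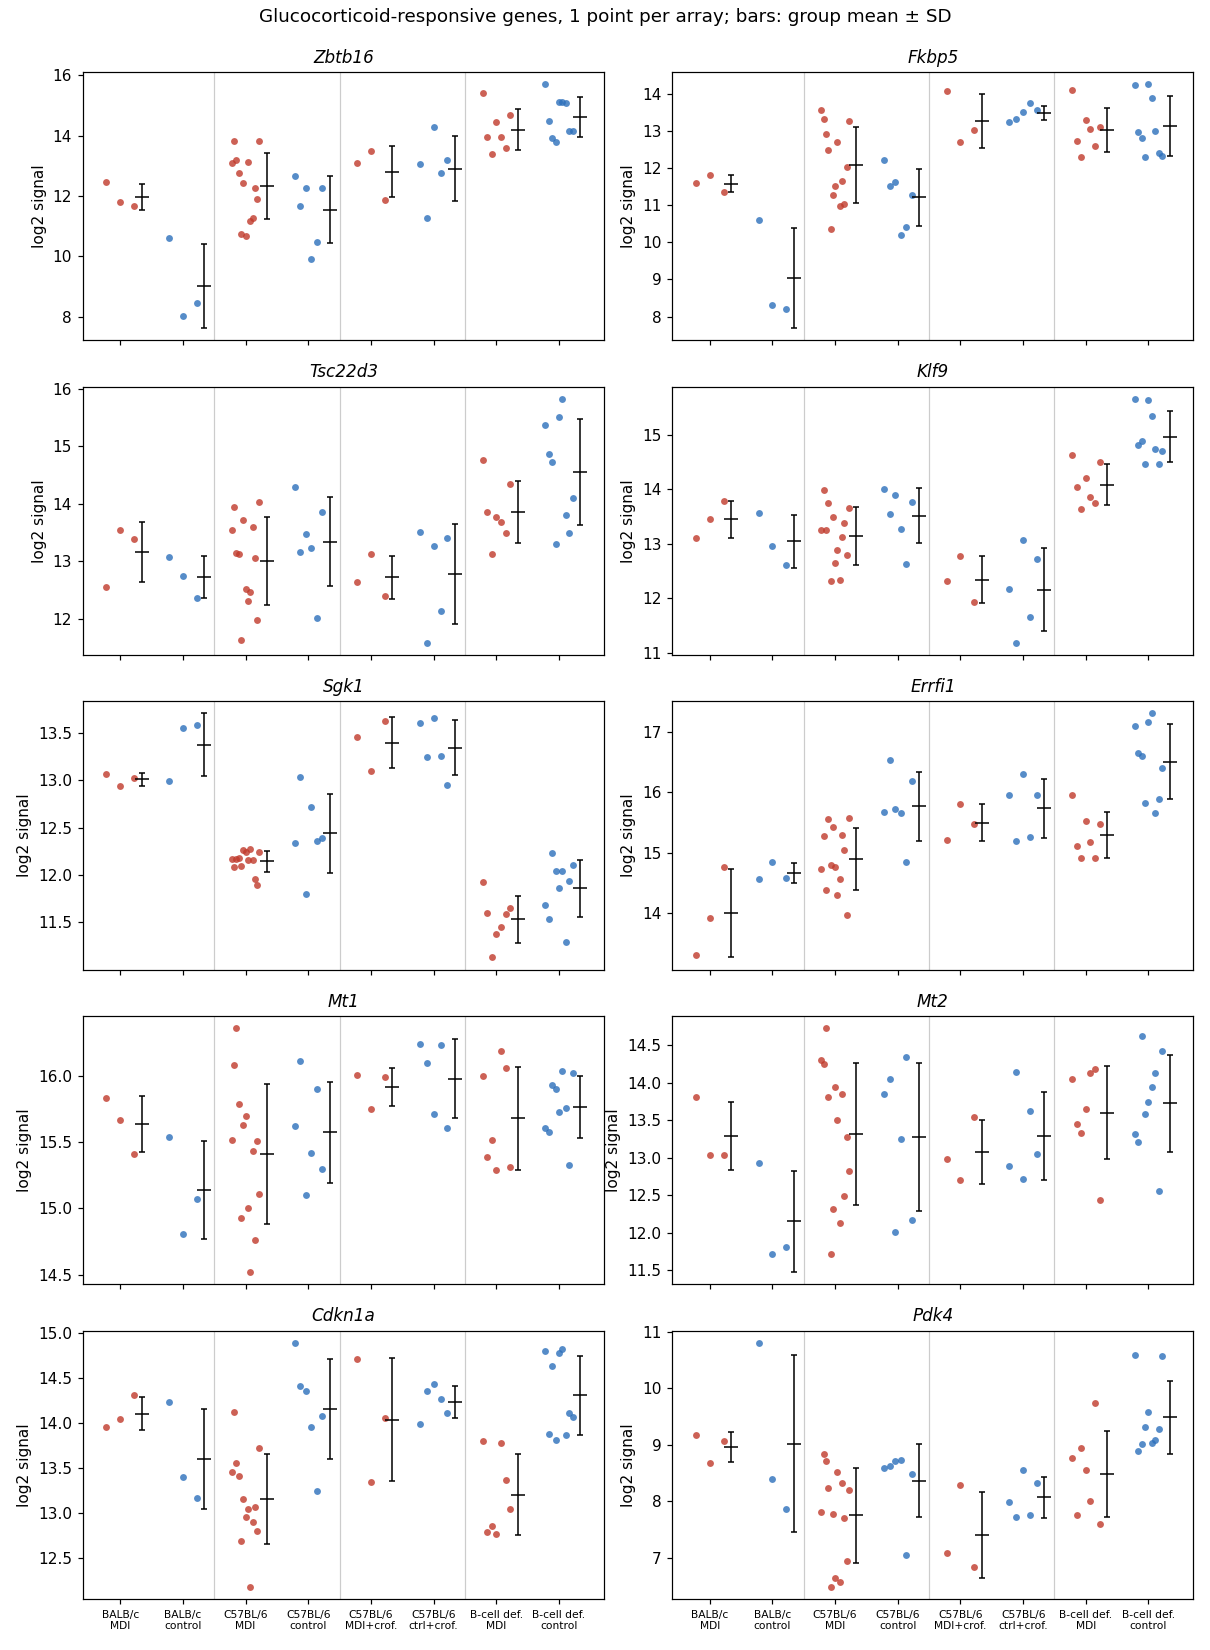
Log2 signal (y axis) of each of the 10 genes in 49 arrays of the 8 groups (x axis), MDI in red and control in blue; each point is 1 array and the black bars are the group mean ± SD. In BALB/c mice all 3 MDI arrays stand above all 3 controls for Zbtb16 and Fkbp5, and Sgk1 is at 13.10 or above in all 3 MDI arrays with crofelemer, against at most 12.27 in the 13 MDI arrays without it.

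In C57BL/6 mice the same pair of genes did not pass the test. Zbtb16 ranged from 10.68 to 13.84 with a median of 12.44 in the 13 MDI arrays, and from 9.91 to 12.67 with a median of 11.98 in the 6 controls. The difference was 0.78 ± 0.43 (limma adjusted p = 0.243). Fkbp5 had medians of 12.02 in MDI and 11.40 in control arrays and a difference of 0.87 ± 0.37 (limma adjusted p = 0.112), which passed without MDI array 5 (1.08, adjusted p = 0.0486). The MDI and control arrays overlapped over most of their range for both genes. The BALB/c effect of MDI exceeded the C57BL/6 one by 2.17 ± 0.83 for Zbtb16 and 1.67 ± 0.72 for Fkbp5 (limma adjusted p = 0.473 and 0.544), so a difference between the strains was not shown. That limma test called 0 of the 10 genes and 0.027% of all probe sets, and Zbtb16, Fkbp5 and Cdkn1a had an unadjusted p under 0.05, as did 7.82% of all probe sets. For Cdkn1a the strains differed by 1.502 ± 0.418 (limma adjusted p = 0.248), a value that passed with array weights (adjusted p = 0.0265).

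Errfi1 and Cdkn1a were the 2 genes of the 10 that passed in C57BL/6 mice, both lower with MDI, where 14.5% of all probe sets passed, 5.3% higher and 9.23% lower. For 0 of the 10 genes were the groups apart without overlap, against 1.08% of all probe sets. Cdkn1a (chr17:29090979-29100722) encodes p21, an inhibitor of cyclin-dependent kinases that p53 also induces. Its log2 signal ranged from 12.18 to 14.12 with a median of 13.07 in MDI arrays, and from 13.24 to 14.89 with a median of 14.22 in controls. 8 of the 13 MDI arrays lay below the control range, and the difference was -0.999 ± 0.216 (limma adjusted p = 0.000939). Errfi1 (chr4:150853796-150868889), a feedback inhibitor of the epidermal growth factor receptor, had a median of 14.80 in MDI and 15.70 in control arrays. It fell by 0.87 on the log2 scale (SE 0.24, limma adjusted p = 0.00813). Both calls stayed with any single array left out (adjusted p up to 0.00865 for Cdkn1a and 0.0486 for Errfi1). They also stayed within submission block 1, where the 16 arrays of these groups gave differences of -1.29 and -1.05. That fit took its spread from all groups of the block.

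The remaining genes in C57BL/6 mice gave no call. Tsc22d3, which encodes the leucine zipper protein GILZ that restrains inflammatory transcription factors, had a difference of -0.33 ± 0.34. Klf9, a Krüppel-like transcription factor, had -0.38 ± 0.23, and Pdk4, a kinase that shuts off pyruvate oxidation in fasting, had -0.61 ± 0.35. Mt1 and Mt2 had -0.16 ± 0.18 and 0.04 ± 0.35. Sgk1, a kinase that raises epithelial sodium transport, had -0.30 ± 0.13 (limma adjusted p = 0.121). It stayed within 11.89 and 12.27 in the 13 MDI arrays, against 11.80 to 13.03 in the 6 controls, and it passed without control 3 (adjusted p = 0.0230). In these mice 5 of 6 endothelial markers were lower and 5 of 5 goblet markers higher with MDI. The mean log2 signal of the endothelial markers ranged from 14.41 to 15.34 in MDI and from 15.39 to 15.77 in control arrays. The part of cell makeup in the lower Errfi1 and Cdkn1a was not tested.

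In B-cell deficient mice 5 of the 10 genes were lower with MDI and 0 higher, where 36.9% of all probe sets passed, 16.2% higher and 20.7% lower. Cdkn1a ranged from 12.77 to 13.80 with a median of 13.04 in the 7 MDI arrays, and from 13.81 to 14.82 with a median of 14.11 in the 9 controls. It was the 1 gene of the 10 whose groups did not overlap there (7.03% of all probe sets), with a difference of -1.11 ± 0.22 (limma adjusted p = 0.000108). Errfi1 ranged from 14.91 to 15.96 in MDI and from 15.65 to 17.30 in control arrays, and fell by 1.21 (SE 0.24, limma adjusted p = 0.000105). Klf9 (chr19:23141226-23168129) had medians of 14.04 in MDI and 14.81 in control arrays and fell by 0.88 (SE 0.24, limma adjusted p = 0.00321). For Errfi1 1 MDI array reached the control range, and for Klf9 2 did.

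Pdk4 (chr6:5483351-5496278) ranged from 7.6 to 9.75 in MDI and from 8.89 to 10.59 in control arrays, and fell by 1.002 (SE 0.356, limma adjusted p = 0.0233). That call ended without MDI 2, MDI 7, control 1 or control 9 (adjusted p up to 0.0669, differences between -1.21 and -0.86). Sgk1 ranged from 11.13 to 11.93 in MDI and from 11.29 to 12.23 in control arrays and fell by 0.33 (SE 0.13, limma adjusted p = 0.0465). Its call ended without any 1 of MDI arrays 2 to 6 or of controls 3, 4, 5, 6, 8 and 9, with differences from -0.40 to -0.26 over single arrays left out. Tsc22d3, Zbtb16, Fkbp5, Mt1 and Mt2 did not pass, with differences of -0.70 ± 0.34, -0.41 ± 0.44, -0.11 ± 0.38, -0.09 ± 0.18 and -0.12 ± 0.36. Tsc22d3 passed without control 4 (adjusted p = 0.0459).

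The B-cell deficient controls were not uniform. Controls 1, 2, 5 and 6 had a narrower spread of values over all probe sets, with an array SD between 2.85 and 2.96 against up to 3.09 in the set. Controls 1, 5 and 6 also had the 3 highest values of that group for Tsc22d3 (15.37, 15.52 and 15.83), Klf9 (15.66, 15.63 and 15.35) and Errfi1 (17.10, 17.16 and 17.30). The same held for Cdkn1a (14.80, 14.78 and 14.82), Fkbp5 (14.25, 14.27 and 13.89) and Zbtb16 (15.71, 15.11 and 15.11). Without the 4 arrays, a choice made after seeing the data, 2 genes passed: Cdkn1a at -0.90 (adjusted p = 0.0102) and Errfi1 at -0.77 (adjusted p = 0.0325). Klf9 then had -0.56 (adjusted p = 0.144), Sgk1 -0.39 (0.0766) and Pdk4 -0.97 (0.1004). Within submission block 2, which holds 3 MDI arrays and all 9 controls, Cdkn1a had -0.91, Errfi1 -1.32 and Klf9 -0.94, all past the threshold, while Sgk1 and Pdk4 were not (adjusted p = 0.223 and 0.0680). Eosinophil markers were higher in 5 of 5 cases with MDI in these mice, with mean log2 signals from 8.64 to 9.67 in MDI and from 6.91 to 7.87 in control arrays, and 5 of 6 endothelial markers were lower.

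A difference in MDI effect between B-cell deficient and C57BL/6 mice was called by limma for 0 of the 10 genes, against 20.3% of all probe sets, and 0 of 10 had an unadjusted p under 0.05, against 35.2%. The B-cell deficient effect less the C57BL/6 effect ran from -1.20 ± 0.62 for Zbtb16 (95% interval -2.43 to 0.04) to 0.08 ± 0.26 for Mt1. For Cdkn1a and Errfi1, which fell in both sets, they were -0.11 ± 0.31 and -0.34 ± 0.34 (limma adjusted p = 0.838 and 0.495), with intervals from -0.73 to 0.51 and from -1.01 to 0.34. The intervals span 0, so they settle no direction.

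**Figure D2:**
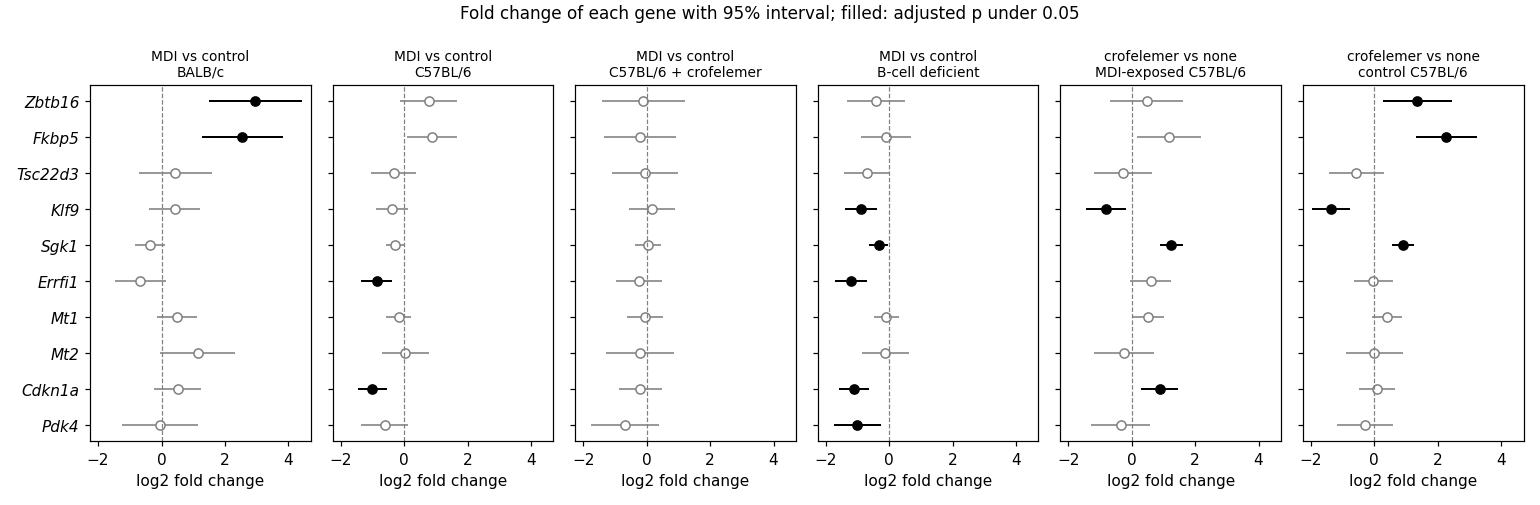
Log2 fold change (x axis) of each gene (rows) in 6 comparisons (panels), first-named group over second, with its 95% interval; filled points have an adjusted p under 0.05. Cdkn1a and Errfi1 are lower with MDI in C57BL/6 and in B-cell deficient mice, and Sgk1 is higher with crofelemer in MDI-exposed (1.25) and in control mice (0.90).

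Sgk1 (chr10:21882184-21999903) was the gene of the 10 with the smallest adjusted p for crofelemer in MDI-exposed C57BL/6 mice. Its log2 signal was 13.46, 13.10 and 13.63 in MDI arrays with crofelemer, and ranged from 11.89 to 12.27 with a median of 12.17 in the 13 MDI arrays without it. The groups did not overlap, as for 13.9% of all probe sets, with a difference of 1.25 ± 0.17 (limma adjusted p = 3.15e-08). In control mice it measured 13.60, 13.25, 13.66, 13.26 and 12.95 with crofelemer, and ranged from 11.80 to 13.03 with a median of 12.38 in the 6 arrays without it. All but 1 of the arrays with crofelemer lay above every array without it, and the difference was 0.90 ± 0.16 (limma adjusted p = 6.60e-06). Both calls stayed with any single array left out and within submission block 1 (1.26 and 0.97).

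Fkbp5 was higher with crofelemer in control mice. It measured 13.26, 13.32, 13.53, 13.75 and 13.58 in controls with crofelemer, against 12.23, 11.52, 11.64, 10.20, 10.41 and 11.28 in controls without it. The groups did not overlap, as for 20.3% of all probe sets, and the difference was 2.27 ± 0.46 (limma adjusted p = 6.49e-05). In MDI-exposed mice it measured 14.08, 12.70 and 13.04 with crofelemer and 10.36 to 13.57 without, a difference of 1.19 ± 0.48 (limma adjusted p = 0.0537). With the replicate block over arrays 1 to 3 of both groups the difference was 0.00 (adjusted p = 0.995). The unblocked value passed with arrays centred on their median (adjusted p = 0.0337), with quantile normalization (0.0388), without dim probe sets (0.0397), in block 1 (0.0456) and without any 1 of MDI arrays 1, 2, 3, 8 and 14 or crofelemer MDI array 2. Zbtb16 measured 13.07, 11.26, 14.30, 12.75 and 13.18 in controls with crofelemer, against 9.91 to 12.67 in controls without it, and was higher by 1.36 ± 0.53 (limma adjusted p = 0.0358). Its call ended without crofelemer controls 1, 3 or 5 or controls 4 or 5 (adjusted p up to 0.143), in block 1 (0.153), with array weights (0.0734) and with array spread as a covariate (0.75, adjusted p = 0.347).

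Klf9 moved the other way. Its log2 signal was 12.17, 11.18, 13.07, 11.66 and 12.71 in controls with crofelemer, against 14.00, 13.54, 13.90, 13.27, 12.62 and 13.77 in controls without it. It fell by 1.36 (SE 0.29, limma adjusted p = 0.000128), a call that stayed with any single array left out. In MDI-exposed mice it measured 12.31, 12.78 and 11.92 with crofelemer, and ranged from 12.31 to 13.98 without it. It fell by 0.80 (SE 0.30, limma adjusted p = 0.0356), which ended without MDI arrays 2 or 4 or crofelemer MDI arrays 1 or 3 (adjusted p up to 0.231), with median centring (0.0627) and with quantile normalization (0.0905). Cdkn1a measured 14.71, 13.34 and 14.06 in MDI arrays with crofelemer, against 12.18 to 14.12 without it, and was higher by 0.88 ± 0.28 (limma adjusted p = 0.0122). Without crofelemer MDI array 1 that value was 0.54 (adjusted p = 0.246), and with array spread as a covariate 0.62 (0.111). In control mice Cdkn1a had a difference of 0.08 ± 0.27 (limma adjusted p = 0.849).

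With crofelemer, 3 of the 10 genes thus passed in MDI-exposed mice, 2 higher and 1 lower, where 32.6% of all probe sets passed (15% higher and 17.5% lower). In control mice 4 of 10 passed, 3 higher and 1 lower, where 39% did (17.6% higher and 21.4% lower). These shares are near the background. Same-numbered arrays 1 to 3 of both MDI groups correlated weakly in their deviations, which does not show that they are paired. The fit of these 6 arrays with the replicate block called 5 genes. In the blocked fit Sgk1 had 1.26 (adjusted p = 0.00542), Klf9 -1.16 (0.00824), Mt2 -1.35 (0.00319), Tsc22d3 -0.82 (0.0398) and Pdk4 -1.05 (0.04996). Cdkn1a was no longer called in it, at 0.33 (adjusted p = 0.631). Tsc22d3, Errfi1, Mt1, Mt2 and Pdk4 were not called in the main unblocked fit of either comparison. Mt1 passed in both with arrays centred on their median (adjusted p = 0.0349 and 0.0318). Tsc22d3 passed in control mice with array spread as a covariate, a fit chosen after seeing the data (-1.35, adjusted p = 0.00765). Markers moved with crofelemer too. All 3 B-cell markers were lower in both comparisons, with median log2 fold changes of -2.41 in MDI-exposed and -2.32 in control mice. Endothelial markers were lower for 5 of 6 and 6 of 6, and their mean log2 signal ranged from 13.60 to 14.28 with crofelemer and from 14.41 to 15.34 without it in MDI-exposed mice. Goblet markers were lower for 5 of 5 with crofelemer in MDI-exposed mice, with mean log2 signals from 7.98 to 9.66 against 10.41 to 12.93. The part of these cells in the changes of the 10 genes was not tested.

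In mice given crofelemer, MDI against control called 0 of the 10 genes by limma, and 0.054% of all probe sets, and 0 had groups without overlap (2.96% of all). No gene of the 10 had an unadjusted p under 0.05 there, against 8.22% of all probe sets. The differences ran from -0.67 ± 0.52 for Pdk4 to 0.18 ± 0.35 for Klf9, and the 95% interval of Cdkn1a was -0.84 to 0.45, against -1.43 to -0.56 without crofelemer. The MDI effect with crofelemer minus that without it was called by limma for 0 of the 10 genes and 0.423% of all probe sets. Of the 10, Cdkn1a alone had an unadjusted p under 0.05, against 12.1% of all probe sets, with a difference of 0.80 ± 0.39 (limma adjusted p = 0.393).

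Across the 8 groups the order of mean levels differed from gene to gene. Zbtb16 was highest in B-cell deficient MDI and control mice (14.20 ± 0.69 and 14.62 ± 0.66, SD, n = 7 and 9) and lowest in BALB/c controls (9.02 ± 1.40, n = 3). Of the 7 steps between neighbours in its order, 2 exceeded the larger SD of the pair: B-cell deficient MDI above crofelemer controls and C57BL/6 controls above BALB/c controls. For Fkbp5 1 step did, again C57BL/6 controls above BALB/c controls, and the crofelemer groups stood at the top with 13.27 ± 0.72 in MDI and 13.49 ± 0.20 in control mice (n = 3 and 5). Sgk1 had 13.40 ± 0.27 in MDI mice with crofelemer (n = 3) at the top and 11.53 ± 0.25 in B-cell deficient MDI mice (n = 7) at the bottom, and 3 of its 7 steps exceeded the SD. Klf9 also had 3 such steps, Errfi1 and Mt2 had 1 each, and no step exceeded the SD for Tsc22d3, Mt1, Cdkn1a and Pdk4. Levels of different sets may differ by normalization.

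Within groups, 9 of the 10 genes varied more than most of the array. The pooled within-group SD was 0.96 for Zbtb16, 0.83 for Fkbp5, 0.77 for both Mt2 and Pdk4, 0.74 for Tsc22d3, 0.51 for Klf9 and Errfi1, 0.47 for Cdkn1a and 0.39 for Mt1, against a median of 0.28 over all probe sets. That of Sgk1 was 0.26. The deviations of the arrays from their group means were correlated over the 49 arrays, with p-values from 100000 permutations within groups and adjusted over the 45 pairs. In 22 of 45 pairs the correlation was called, all positive (21 by Spearman's rho, and 21 with array spread removed). The share called among pairs of other genes was not computed, so the count cannot be read as particular to these genes.

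Tsc22d3 (chrX:140539528-140600522) and Klf9 had the closest relation, with r = 0.864 and rho = 0.873 (permutation adjusted p = 5.62e-05 for both) and r = 0.840 without the 2 arrays farthest from the median. It held in each set of mice, with r between 0.825 in the 6 BALB/c arrays and 0.907 in the 16 B-cell deficient arrays. Zbtb16 and Fkbp5 had r = 0.794 and rho = 0.808 (permutation adjusted p = 5.62e-05 for both), and 0.825 without the 2 farthest arrays. Within sets r was 0.932 in BALB/c, 0.862 in C57BL/6 without crofelemer and 0.894 in B-cell deficient mice, but 0.124 in the 8 arrays with crofelemer, where Fkbp5 had a within-group SD of 0.45 against 0.96 without crofelemer.

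**Figure D3:**
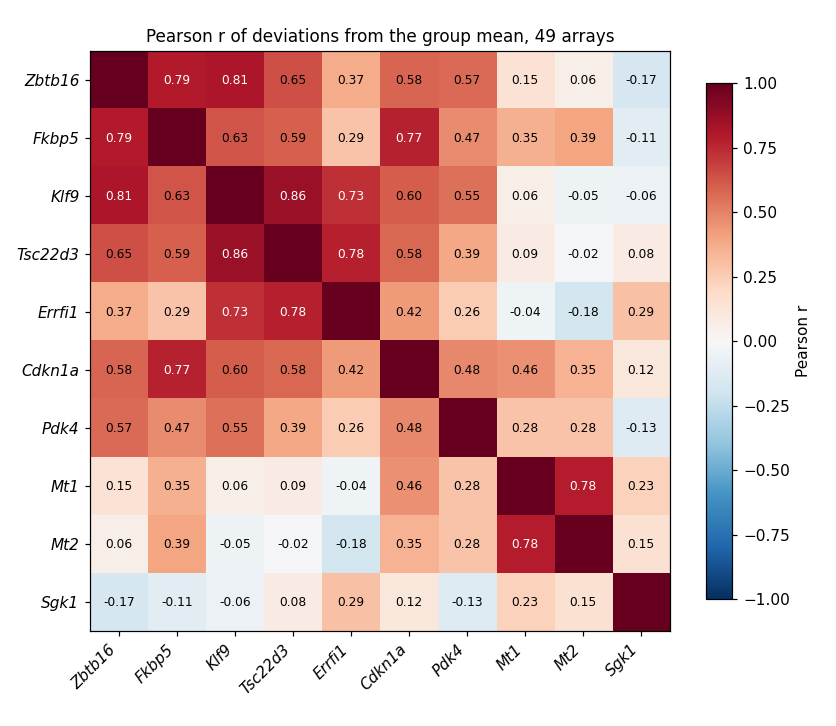
Pearson r between the genes (rows and columns) of the deviations from the group mean over 49 arrays, from -1 in blue to 1 in red. The block of 7 genes at the upper left has r between 0.257 and 0.864, the pair Mt1 and Mt2 has 0.782, and the row of Sgk1 stays between -0.168 and 0.289.

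Zbtb16, Fkbp5, Tsc22d3, Klf9, Errfi1, Cdkn1a and Pdk4 formed a block, a grouping made after seeing the correlations. Their 21 pairs had a median r of 0.581 (0.257 to 0.864), and a median of 0.556 with array spread removed. The median within sets was 0.649 in BALB/c, 0.704 in C57BL/6 without crofelemer, 0.642 with crofelemer and 0.674 in B-cell deficient mice. In the 8 crofelemer arrays the block did not hold as a whole. Cdkn1a there had 0.866 with Fkbp5, but from -0.599 with Pdk4 to -0.125 with Zbtb16 among the rest of the block. Fkbp5 had -0.413 with Pdk4, -0.386 with Errfi1, -0.146 with Tsc22d3 and -0.032 with Klf9, and 0.124 with Zbtb16. In BALB/c mice the lowest pair was Zbtb16 with Errfi1 (-0.394). In B-cell deficient mice Pdk4 stood apart from the rest of the block. Its r there lay between -0.068 with Tsc22d3 and 0.197 with Cdkn1a. Mt1 (chr8:94178883-94180327) and Mt2 (chr8:94172618-94173567), neighbours on the chromosome that both bind zinc and copper, went together with r = 0.782 and rho = 0.773 (permutation adjusted p = 5.62e-05 for both). Cross-hybridization between these related genes was not tested. Over all 49 arrays the metallothioneins followed the other 7 genes little, with a median r of 0.116 over 14 pairs. That pooled value joins sets of opposite sign. The median was -0.690 in the 8 crofelemer arrays (lowest pair -0.941) and 0.593 in the 6 BALB/c arrays. It was 0.074 in B-cell deficient mice and 0.258 in the remaining C57BL/6 arrays. Mt1 with Cdkn1a had the highest pooled value (0.456, rho 0.409, permutation adjusted p = 0.00790 and 0.0208, and r = 0.363 without the 2 farthest arrays). Mt2 with Fkbp5 was also called by r (0.391, permutation adjusted p = 0.0359) but not by rho (0.305, permutation adjusted p = 0.116). Sgk1, whose promoter window held the full palindrome, was called with 0 of the other 9 genes by this permutation test (the lowest unadjusted p was 0.0637). Its median r over all 49 arrays was 0.083 (-0.168 to 0.289). By set the median of Sgk1 was -0.808 in the 6 BALB/c arrays, with -0.986 for Fkbp5. It was 0.032 in C57BL/6 without crofelemer, 0.080 with crofelemer and 0.223 in B-cell deficient mice.

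**Figure D4:**
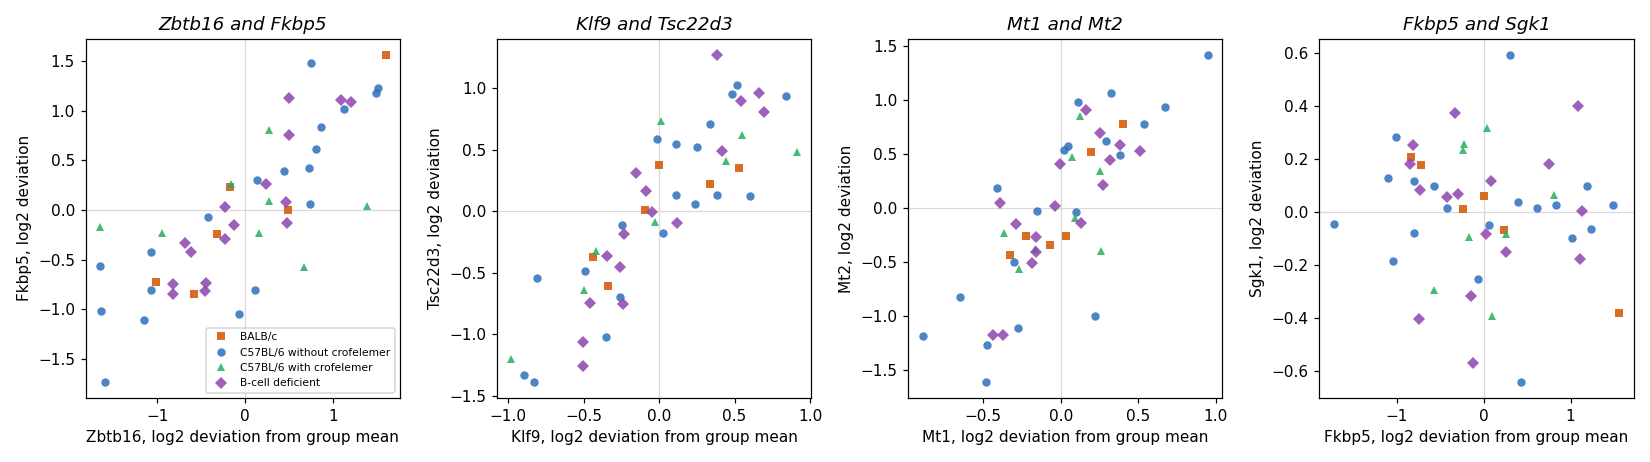
Deviations from the group mean in log2 signal of 4 gene pairs (panels, one gene on each axis), 1 point per array, with the set of mice by colour and shape. The points of Zbtb16 with Fkbp5, Klf9 with Tsc22d3 and Mt1 with Mt2 rise together, and those of Fkbp5 with Sgk1 (r = -0.109) do not.

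Array spread moved with some of these deviations. Its correlation with the deviation was -0.520 for Fkbp5, -0.518 for Tsc22d3, -0.315 for Zbtb16 and -0.301 for Cdkn1a, while the lower and upper quartile of all probe sets were -0.297 and 0.306. These are descriptions over 49 arrays that share the signal itself.

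The genes most like each member in within-group deviation were sought among 19504 others. For Tsc22d3 they were Klf9, the clock gene Per1 (r = 0.844) and the transcription factor Klf15 (0.832). For Zbtb16 they were Klf9, Fkbp5 and Fam107a (0.787), and Fam107a was also nearest to Fkbp5 (0.827) and second to Fkbp5 itself for Cdkn1a (0.767). Klf9 had Tsc22d3, Rgcc (0.811) and Zbtb16. Errfi1 was nearest to Rasgef1b (0.813), Arrdc3 (0.799) and Per1 (0.794). Pdk4 was nearest to the lipid droplet gene Plin4 (0.799), the fat-splitting lipase Pnpla2 (0.797) and Dgat2 (0.765), an enzyme of triglyceride synthesis. Mt1 and Mt2 each had the other as nearest gene, and Sgk1 had lower values, with Fam168a at 0.665.

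The receptor gene Nr3c1 was not called in any of the 9 comparisons, with mean log2 signals between 8.94 and 9.72 in the 8 groups. The list counts that follow stand beside these shares of all probe sets. With MDI 0.302% passed in BALB/c, 14.5% in C57BL/6 and 36.9% in B-cell deficient mice. With crofelemer 32.6% passed in MDI-exposed and 39% in control mice. No list was tested against the rest of the array. Of 11 measured genes of receptor, hormone metabolism and chaperones, 0 passed with MDI in BALB/c mice, and in C57BL/6 mice 2 were lower, the mineralocorticoid receptor Nr3c2 (-0.94 ± 0.20) and H6pd (-0.82 ± 0.18). In B-cell deficient mice 1 was higher and 4 lower with MDI, among them Hsd11b1, which regenerates active glucocorticoid in tissue (-0.78 ± 0.12), and Hsp90aa1, which encodes a receptor chaperone (-1.01 ± 0.20). With crofelemer, 2 were higher and 2 lower in MDI-exposed mice and 2 higher and 4 lower in control mice. Hsd11b1 averaged 12.87 ± 0.12 in MDI mice with crofelemer and 14.72 ± 0.29 without it (SD, n = 3 and 13), and 12.92 ± 0.42 in controls with crofelemer and 15.05 ± 0.23 without it (n = 5 and 6). Its differences were -1.85 ± 0.16 and -2.13 ± 0.15, and those of Hsp90aa1 were -2.02 ± 0.25 and -2.39 ± 0.24.

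Of 19 other genes known to be induced by glucocorticoids, 1 was higher with MDI in BALB/c mice, the scavenger receptor Cd163 (1.43 ± 0.29, limma adjusted p = 0.00668). In C57BL/6 mice 2 were higher and 6 lower, with Cd163 at 0.88 ± 0.18 and Lcn2 at 0.85 ± 0.21 against Dusp1, a phosphatase that stops MAP kinases, at -1.33 ± 0.27 and Zfp36, an RNA-destabilizing protein, at -1.24 ± 0.24. In B-cell deficient mice 3 were higher and 2 lower, with Cd163 at 0.97 ± 0.18 and Dusp1 at -1.32 ± 0.27. With crofelemer 2 were higher and 5 lower in MDI-exposed mice, where 32.6% of all probe sets passed. In controls 2 were higher and 6 lower, where 39% passed. Sesn1 had -1.22 ± 0.16 in MDI-exposed and -1.04 ± 0.15 in control mice, and Rgs2 had -1.43 ± 0.35 and -1.82 ± 0.33. The median log2 fold changes of this list were 0.15, -0.41 and -0.19 with MDI in BALB/c mice, in C57BL/6 mice and in B-cell deficient mice, beside -0.01, 0.01 and -0.06 over all probe sets.

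Of 14 genes that glucocorticoids repress, the eosinophil attractant Ccl11 was higher with MDI in BALB/c (2.56 ± 0.61), C57BL/6 (4.02 ± 0.37) and B-cell deficient mice (4.17 ± 0.38). In all 1, 3 and 3 of the list were higher, and 0, 1 and 0 lower, the 1 being Il1b (-1.46 ± 0.36). With crofelemer 3 were higher and 4 lower in MDI-exposed mice, Tnf among the higher (1.74 ± 0.32) and Ccl11 among the lower (-2.87 ± 0.48), and 3 were higher and 3 lower in controls. Other inputs to the 10 genes were also read. Of 10 p53 targets besides Cdkn1a, 0 were higher and 2 lower with MDI in C57BL/6 mice, Mdm2 (-0.62 ± 0.13) and Tnfrsf10b (-0.96 ± 0.21), and 4 were higher with crofelemer in MDI-exposed mice, with Zmat3 at 1.35 ± 0.17 and Phlda3 at 1.27 ± 0.24. In controls with crofelemer 4 were higher and 1 lower, and in B-cell deficient mice 0 were higher and 3 lower with MDI. Of 9 genes of epidermal growth factor receptor feedback, 1 was lower with MDI in C57BL/6 mice, Spry4 (-0.58 ± 0.19), and 2 in B-cell deficient mice, Dusp6 (-0.49 ± 0.12) and Spry2 (-0.31 ± 0.12). With crofelemer 2 were higher in MDI-exposed mice, and 4 were higher and 1 lower in controls, with Ereg at 1.20 ± 0.24 and 1.49 ± 0.23. Of 10 genes of the metal response, 3 were higher and 1 lower with crofelemer in MDI-exposed mice, Hmox1 among the higher (1.55 ± 0.33), and 3 were higher and 2 lower in controls. With MDI the metal list had 1 higher and 2 lower in C57BL/6 mice and 1 higher and 3 lower in B-cell deficient mice, with Gclc, an enzyme of glutathione synthesis, higher in both (0.72 ± 0.15 and 0.53 ± 0.15). For MDI against control in mice given crofelemer, limma called 0 genes of any of the 8 lists.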

How the data were processed

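Lung RNA was measured on 51 arrays, of which 49 fall into 8 groups. The authors deposited log2 signal values with 2 decimals for 22206 probe sets, written with Transcriptome Analysis Console per the submitters' processing notes, for which neither version nor normalization was found in the labels. That the scale is log2 was taken from the range, with a highest value of 20.91. The labels of 2 arrays contradict each other on crofelemer, and these arrays entered no comparison. Gene names came from the array's annotation, in which 19572 probe sets carried 1 symbol and 2634 none, and for 55 symbols with several probe sets the one with the highest mean was used.

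The 10 genes and the gene lists were chosen with earlier results of these data known. One limma 3.58.1 model of 8 group means (R 4.3.3, 41 residual degrees of freedom, intensity trend, 2-sided tests) gave 9 comparisons, adjusted by Benjamini-Hochberg over all 22206 probe sets and called at an adjusted p under 0.05. The 9 comparisons share groups, and no filter or pseudocount was used. The procedure was tested on simulated data. Submission blocks are runs of consecutive records that the labels do not call batches. Array number limits the precision. Named were all 10 genes, up to 4 called genes with the smallest p per list and comparison, and the 3 genes most like each member. Same-numbered arrays of MDI-exposed C57BL/6 mice with and without crofelemer correlated in their deviations at 0.105 to 0.167 in all 3 pairs, so the blocked fit is given beside that result. Other comparisons did not reach 0.1 in every pair, though 4 of 6 pairs exceeded it for MDI in C57BL/6 mice. Differently numbered arrays were not set beside these values, so they cannot show pairing. Alternatives were median centring, quantile normalization, no dim probe sets, no trend, array weights, only the groups compared, blocks, the replicate block and single arrays left out. Figures used matplotlib 3.10.9 in Python 3.11.15.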

Additional observations from a re-analysis of the deposited data

Results flagged for a closer look

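Pdk4 in C57BL/6 control 5 had a log2 signal of 7.05, against 8.48 to 8.73 in the other 5 controls, a gap large for the range of its group. It was 1 value among 40 sets of arrays examined this way, where chance gives about 1 in 20.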

How the results depend on the processing

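Counts of the 10 genes called per comparison were recomputed under each alternative. In BALB/c mice the count of 2 became 1 with arrays centred on their median, 0 with quantile normalization, 0 without an intensity trend, 0 with the submission block as a term and 0 within block 1, and ranged from 0 to 2 over single arrays left out; the cause was not tested. With the replicate block it was 3, as Mt2 joined (adjusted p = 0.00110). In C57BL/6 mice the count of 2 for MDI became 4 with the replicate block (Zbtb16 at 1.13 and Fkbp5 at 1.11 joined), and 2 to 3 over single arrays. The replicate block kept only array numbers found in every group compared, with 6 pairs in C57BL/6 and 7 in B-cell deficient mice. There its values differ from the main fit by the arrays used as well as by the block. In B-cell deficient mice the count of 5 became 3 with the block as a term, 3 within block 2, 2 without the 4 narrow arrays and 3 with array spread as a covariate, the last pair chosen after seeing the data, and 3 to 5 over single arrays. With the replicate block it was 6, with Tsc22d3 (adjusted p = 0.0181) and Zbtb16 (0.0291) gained and Sgk1 (0.171) lost. For crofelemer the count of 3 in MDI-exposed mice became 5 with the replicate block and 1 to 5 over single arrays, and that of 4 in controls 3 to 4. The difference of the MDI effect between B-cell deficient and C57BL/6 mice gained 3 genes with the replicate block, and that between BALB/c and C57BL/6 mice gained 1 with array weights, Cdkn1a at 1.54 (adjusted p = 0.0265). Turns of sign were counted only with a call or a shift above the gene's pooled within-group SD. With the replicate block they came for crofelemer in MDI-exposed mice in Zbtb16 (-0.56) and Mt1 (-0.07). The difference by crofelemer also turned with it in Mt1 (-0.48). With array spread as a covariate the difference by B-cell deficiency turned in Fkbp5 (0.11) and Tsc22d3 (0.61). Pdk4 turned for MDI in BALB/c mice without control 1 (0.84), and ranged from -0.63 to 0.84 over single arrays. None of these was called. Pairing was not shown in any comparison, and the block is only a shared number. Apart from single arrays left out, 859 values of a gene kept their side of the threshold, 27 lost the call and 19 gained it. A further 5 turned sign by the rule above, and smaller turns without a call were counted with the 859. Each gene had 1 probe set, so no second probe set could be tried. Groups of 3 arrays limit what can be seen.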

Other observations

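Of 13 measured genes of the circadian clock, which sets the daily rhythm of transcription, 5 were higher and 2 lower with crofelemer in MDI-exposed mice, where 32.6% of all probe sets passed, by limma. In control mice 4 were higher and 3 lower, where 39% of all probe sets passed. The list was not tested against the rest of the array. Per2, a repressor of the clock, was higher by 1.66 ± 0.33 and 1.86 ± 0.32, and its activator Arntl had -1.02 ± 0.25 and -2.01 ± 0.24 (SE). With MDI in C57BL/6 mice 2 were higher and 2 lower, with Arntl at -0.98 ± 0.19 and the clock output gene Dbp at 1.06 ± 0.32, and with MDI in B-cell deficient mice 0 were higher and 3 lower. Of 8 measured genes of PPAR and fasting, which include relatives of Pdk4 in fuel use, 2 were lower with crofelemer in MDI-exposed and 3 in control mice, with the fatty acid transporter Cd36 at -1.79 ± 0.19 and -2.05 ± 0.18.

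The 2 arrays whose labels contradict each other on crofelemer are given as values. The array titled as MDI with crofelemer, number 4, had a log2 signal of 13.12 for Sgk1, 12.04 for Fkbp5, 11.58 for Zbtb16 and 12.51 for Klf9. The array titled as MDI without crofelemer, number 13, had 12.60 for Sgk1, 11.23 for Fkbp5, 10.46 for Zbtb16 and 12.22 for Klf9.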
